A study of Mus musculus with 8 samples.

Results

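The opioid, tachykinin and neurotensin system was described here by 10 genes, chosen by name from the 19505 genes that the array annotation names. They were 4 peptide precursor genes (Penk, Pdyn, Tac1 and Nts) and 6 receptor genes (Oprm1, Oprd1, Oprk1, Tacr1, Ntsr1 and Ntsr2). All 10 were measured, each by 1 row of the array, so no choice between rows was needed. RNA came from brains of singly housed male ICR mice, an outbred stock, bought at 8 weeks of age. The acute stressor was the tail suspension test (TST), which records how long a mouse held up by the tail stays immobile. Rosemary extract (RE) was the treatment. The 4 groups, each with 2 Clariom S arrays, were water, low-dose RE and high-dose RE, all with TST, and water without TST. Extract or water was given in drinking water for 7 days. The low dose was 10 mg/kg; titles give the high dose as 100 mg/kg and another label as 50 mg/kg. The labels assign 7 mice to each group and do not say whether the 2 RNA samples were separate mice or pools, so the spread behind every p-value may be technical. One label field calls water with TST a negative control and water without TST a positive one, and grouping was by title.

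These peptides are cut from larger precursors and released by neurons to act on G protein-coupled receptors. Penk gives the enkephalins, which act mainly on the delta (Oprd1) and mu (Oprm1) opioid receptors, and Pdyn gives the dynorphins, which act mainly on the kappa receptor (Oprk1). Tac1 gives substance P and neurokinin A, and Tacr1 is the receptor that prefers substance P. Nts gives neurotensin, with Ntsr1 as its high-affinity neuronal receptor and Ntsr2 as a lower-affinity receptor found largely in astrocytes. In the forebrain, Penk marks the striatal projection neurons of the indirect pathway, and Pdyn and Tac1 those of the direct pathway. The central amygdala, bed nucleus of the stria terminalis and hypothalamus also make these peptides, which are known for roles in pain, reward, aversion and the response to stress.

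Values are the deposited log2 values, and differences are log2 differences on that scale, with the standard error (SE) of a limma fit to all 8 arrays. The scale may be stretched: it reaches 19.79, with 1359 values over the 16 that a 16-bit scanner can give. There were no detection calls. Mean values of Ntsr1, Tacr1, Nts and Pdyn were above those of 32.4%, 44.8%, 51.4% and 53.5% of rows. The rest of the 10 genes lay above 62.2% (Oprk1) to 97.6% (Penk) of rows. The study's own threshold is a fold change above 1.2 with an unadjusted p under 0.05. It was applied here to limma p-values unless another test is named, while the study's methods name an analysis of variance. Limbic system and hippocampus are both given as the tissue. Some arrays stood apart. Water with TST replicate 2 correlated with the other arrays at 0.967 to 0.978 across rows, against 0.983 to 0.993 among the other 7 arrays. Markers of cerebellar neurons (11 of 12 measured) averaged 4.67 above their 8-array means on water with TST replicate 2 and 2.70 above on water without TST replicate 1, and between -1.58 and -0.53 on the rest. Markers of striatal projection neurons (12 of 14 measured) were highest on water without TST replicate 2, at 1.59 above their 8-array means. The next highest array was at 0.152, and water with TST replicate 2 was lowest at -1.12. Markers of hypothalamic neurons (16 of 17 measured) and amygdala neurons (9 of 9) were also highest on water without TST replicate 2, at 0.888 and 0.851. The next highest arrays for these lists were at 0.157 and 0.101.

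Water without TST replicate 2 was also the highest of the 8 arrays for all 4 precursors and for 4 of the 6 receptors. Over all named genes, it was the highest array for 10.9% of them. Of the 10 genes, 5 had their lowest value on water with TST replicate 2, against 21% of all named genes. These were Pdyn, Tac1, Oprk1, Tacr1 and Ntsr1. The exceptions at the high end were Oprd1 and Ntsr2, which peaked on a high-dose RE array, and Ntsr2 was lowest on water without TST replicate 2.

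**Figure D1:**
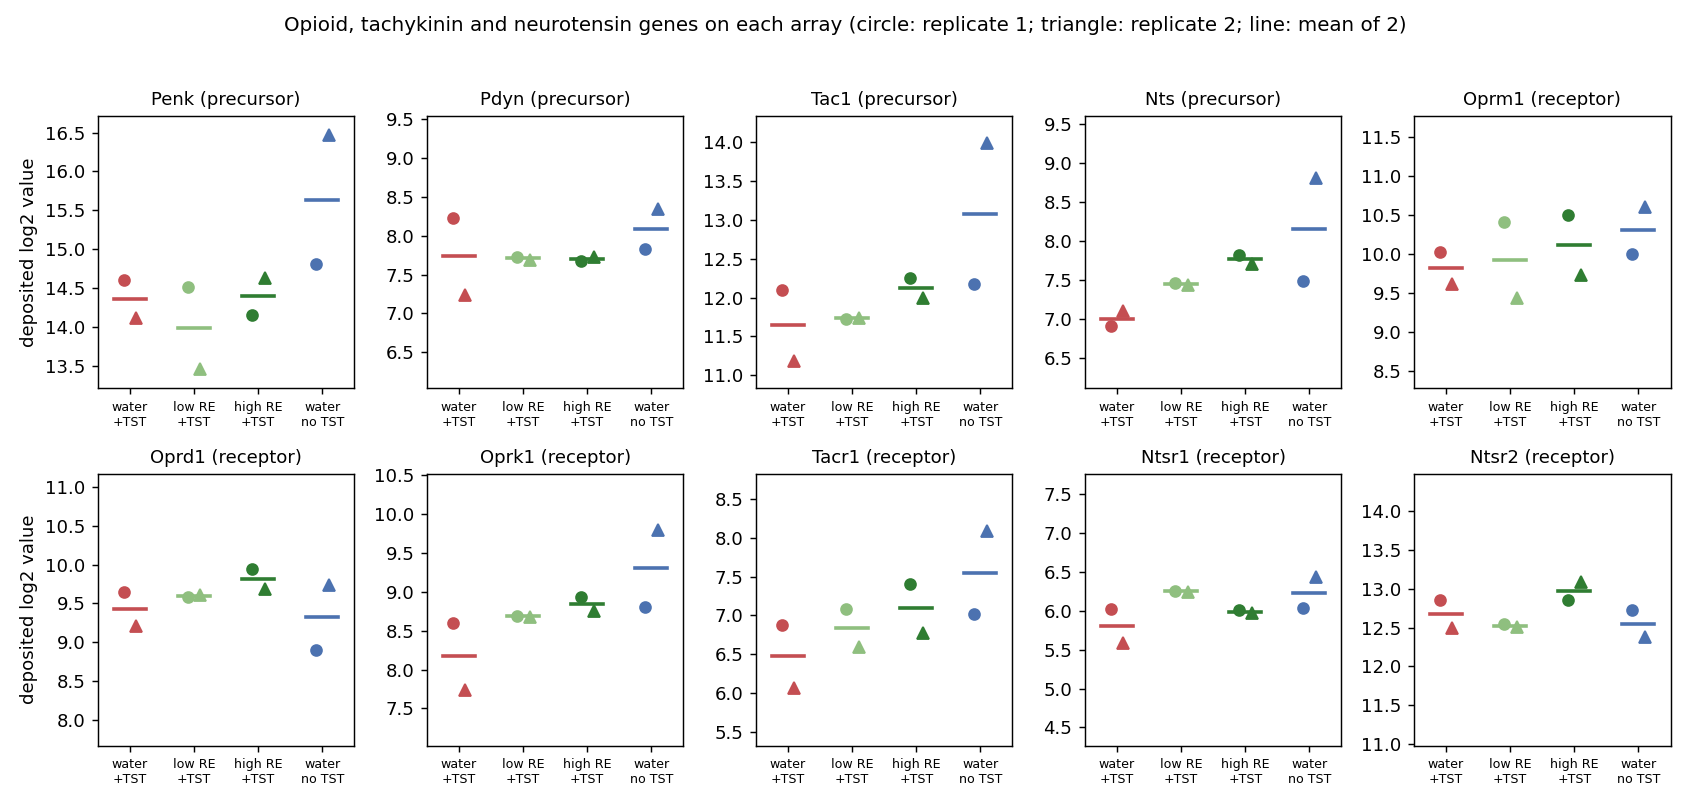
Deposited log2 value of the 10 genes on each of the 8 arrays, by group; the circle is replicate 1, the triangle replicate 2 and the line their mean, and every panel spans 3.5 log2 units. Water without TST replicate 2 is the top point for Penk (16.47), Pdyn (8.34), Tac1 (13.98) and Nts (8.81), while replicate 1 of that group lies much closer to the other arrays.

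Among the precursors, Penk was at 14.60 and 14.12 in water with TST, 14.51 and 13.46 in low-dose RE, 14.16 and 14.63 in high-dose RE, and 14.81 and 16.47 in water without TST. All 6 arrays from mice with TST, given water or extract, lay below both arrays without it. This arrangement was found in 2.49% of all rows and in no other gene of the 10. It was not a planned comparison and has no test of its own. The opposite arrangement held in 3.35% of rows and in none of the 10 genes. The nearest Penk value with TST, 14.63 in high-dose RE, was 0.18 below the lower array without TST, while the arrays without TST differed from each other by 1.66.

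Tac1 was at 12.10 and 11.19 in water with TST, 11.73 and 11.74 in low-dose RE, 12.25 and 11.99 in high-dose RE, and 12.17 and 13.98 in water without TST. Here 1 high-dose array lay above the lower array without TST, and the low-dose arrays were 0.01 apart. Penk and Tac1 had the widest ranges of the 10 genes over the 8 arrays, 3.01 and 2.79, wider than those of 98.8% and 98.5% of named genes.

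Nts was at 6.91 and 7.10 in water with TST, 7.46 and 7.44 in low-dose RE, 7.82 and 7.71 in high-dose RE, and 7.49 and 8.81 in water without TST. Among the groups with TST, its values were lowest with water, higher at the low dose and highest at the high dose, without overlap. The same ordered separation of water, low dose and high dose was found in 0.883% of all rows and, of the 10 genes, also in Oprk1, while the reverse order held in 0.784% of rows and in none of the 10. It was picked out after the values were seen and has no test of its own.

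Pdyn was at 8.23 and 7.24 in water with TST, 7.73 and 7.69 in low-dose RE, 7.67 and 7.73 in high-dose RE, and 7.83 and 8.34 in water without TST. Its arrays of water with TST lay on either side of all the extract arrays, and the water groups overlapped. Of the precursors it had the narrowest range, 1.1.

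Promoter sequence was held for 8 of the 10 genes in the RefSeq tables (GRCm38.p6), in 11 windows, but not for Penk or Oprk1, both lower with TST. It is shown for 3 precursors, the 250 bases before the annotated start on the gene's strand, because Tac1 and Nts were lower with TST while Pdyn overlapped. Motifs of cAMP- and activity-responsive factors were searched on both strands, and matches are in capitals: the cAMP response element (CRE) TGACGTCA, its core TGACG, the variant TGCGTCA and the AP-1 motif TGANTCA. TGACGTCA and TGCGTCA each contain the core or its complement. Among 32851 promoter windows of the same length, 1.55% held TGACGTCA, 17.8% TGACG, 1.75% TGCGTCA and 6.75% TGANTCA.
Tac1 promoter, chr6:7554811-7555060, plus strand: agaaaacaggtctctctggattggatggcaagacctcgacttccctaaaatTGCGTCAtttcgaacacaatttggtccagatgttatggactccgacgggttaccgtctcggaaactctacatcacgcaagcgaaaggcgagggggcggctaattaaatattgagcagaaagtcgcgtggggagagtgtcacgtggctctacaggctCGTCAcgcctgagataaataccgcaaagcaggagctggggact
Nts promoter, chr10:102490419-102490668, minus strand: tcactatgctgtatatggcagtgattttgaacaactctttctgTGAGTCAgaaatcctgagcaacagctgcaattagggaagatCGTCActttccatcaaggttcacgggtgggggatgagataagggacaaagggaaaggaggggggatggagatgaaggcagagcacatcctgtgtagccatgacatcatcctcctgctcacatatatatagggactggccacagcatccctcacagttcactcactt
Pdyn promoter, chr2:129699939-129700188, minus strand: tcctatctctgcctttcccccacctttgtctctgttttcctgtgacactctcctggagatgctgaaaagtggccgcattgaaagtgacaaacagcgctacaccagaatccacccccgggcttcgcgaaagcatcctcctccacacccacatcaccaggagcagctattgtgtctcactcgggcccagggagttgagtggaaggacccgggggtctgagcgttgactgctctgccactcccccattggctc
The Tac1 window held the TGCGTCA variant, starting 199 bases before the start, and a further core 43 bases before it. The Nts window held an AP-1 match 207 bases and a core 166 bases before the start. Neither the Pdyn window shown nor the other Pdyn window held any of the 4 motifs. Tacr1 and Ntsr1 each held 1 core, and the windows of Oprm1, Oprd1 and Ntsr2 held none of the 4 motifs. The windows shown were picked by their TST result, and a link of motifs to that result was not tested. A match describes these letters only.

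Among the opioid receptors, Oprk1 was at 8.60 and 7.74 in water with TST, 8.69 and 8.68 in low-dose RE, 8.93 and 8.75 in high-dose RE, and 8.81 and 9.80 in water without TST. Its extract arrays lay above both arrays of water with TST, by 0.08 at the closest. Oprm1 was at 10.02 and 9.62 in water with TST, 10.41 and 9.44 in low-dose RE, 10.50 and 9.73 in high-dose RE, and 10.00 and 10.61 in water without TST. Every group of Oprm1 overlapped every other. Oprd1 was at 9.65 and 9.21 in water with TST, 9.58 and 9.61 in low-dose RE, 9.94 and 9.69 in high-dose RE, and 8.90 and 9.74 in water without TST. It was the only gene of the 10 with its lowest value on water without TST replicate 1.

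The substance P receptor gene Tacr1 was at 6.88 and 6.07 in water with TST, 7.08 and 6.60 in low-dose RE, 7.41 and 6.77 in high-dose RE, and 7.02 and 8.08 in water without TST. Its pattern over the arrays was the closest to that of Oprk1 among all couples of the 10 genes, with a root mean square distance of 0.174 between their values centred on their own means.

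Of the neurotensin receptors, Ntsr1 was at 6.02 and 5.59 in water with TST, 6.26 and 6.24 in low-dose RE, 6.01 and 5.97 in high-dose RE, and 6.03 and 6.44 in water without TST. Its water groups differed by 0.01 at the closest arrays. Ntsr2 was at 12.86 and 12.50 in water with TST, 12.54 and 12.51 in low-dose RE, 12.86 and 13.08 in high-dose RE, and 12.72 and 12.38 in water without TST. Its range of 0.7 was the narrowest of the 10.

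**Figure D2:**
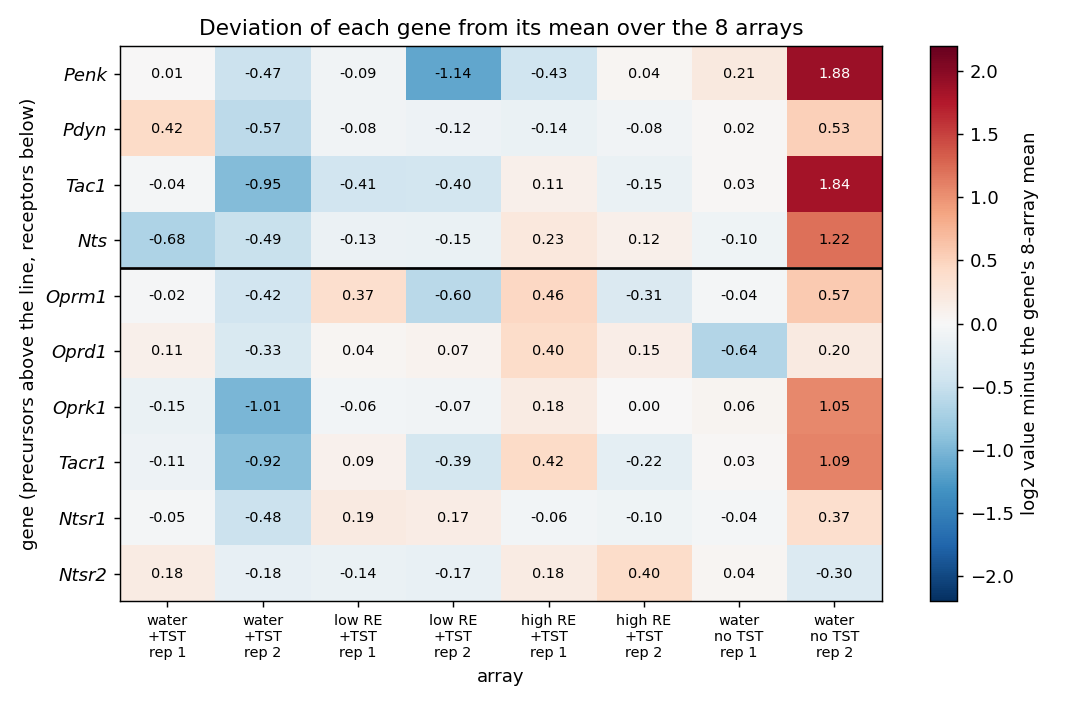
Log2 value of each gene minus its own mean over the 8 arrays; columns are arrays by group, precursors are above the black line and receptors below it, and red is above and blue below the mean. The column of water without TST replicate 2 reaches 1.88 for Penk and 1.84 for Tac1, and that of water with TST replicate 2 reaches -1.01 for Oprk1.

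The comparison of the water groups asked what the TST changed. With TST, 5 of the 10 genes were lower past the study's threshold, Penk, Tac1, Nts, Oprk1 and Tacr1, and none was higher past it. Of all rows, 2.55% passed it, 1.26% lower and 1.29% higher. Tac1 differed by -1.43 (SE 0.543), Penk by -1.28 (SE 0.551), Nts by -1.145 (SE 0.389), Oprk1 by -1.135 (SE 0.386) and Tacr1 by -1.075 (SE 0.435). By limma with Benjamini-Hochberg adjustment, adjusted p = 0.997 for each of the 5 and none of the 22206 rows passed; 567 rows had an unadjusted p under 0.05. In these bulk samples, fewer cells of a type and less RNA per cell cannot be told apart.

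The median difference was -1.21 over the 4 precursors and -0.458 over the 6 receptors, beside 0.01 over all named genes; precursors and receptors were not tested against each other. The water groups did not overlap for 6 of the 10 genes, the 5 above and Ntsr1, all lower with TST, where 13.3% of rows were separated in that direction. Ntsr1 differed by -0.43 (SE 0.255), Oprm1 by -0.485 (SE 0.410) and Pdyn by -0.35 (SE 0.344), and the 95% confidence interval of each included 0. Oprd1, at 0.11 (SE 0.319), and Ntsr2, at 0.13 (SE 0.247), were the genes with positive differences.

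For the 5 genes past the threshold, the size of the TST difference rested most on replicate 2 of water without TST. Leaving out replicate 2 of water with TST reduced it less, and did not reduce it for Nts. When replicate 2 of water without TST was left out, Penk was at -0.45, Tac1 at -0.525, Nts at -0.485, Oprk1 at -0.64 and Tacr1 at -0.545, and none passed. When replicate 2 of water with TST was left out, Nts alone passed, at -1.24; Penk was at -1.04, Tac1 at -0.975, Oprk1 at -0.705 and Tacr1 at -0.67. With both arrays left out, which leaves replicate 1 of each water group, Penk was at -0.21, Tac1 at -0.07, Oprk1 at -0.21 and Tacr1 at -0.14. Nts, at -0.58, was then the furthest from 0 of the 5, and Pdyn turned to 0.4. Without water with TST replicate 1, Nts and Penk did not pass (-1.05 and -1.52), Pdyn did (-0.845), and Tac1 reached -1.885. Without water without TST replicate 1, the 5 genes lay between -2.335 and -1.605 and all passed. Leaving out a low-dose array, which changes only the spread, cost Tacr1 its call, and a high-dose array cost Penk its call. Fitted with limma on the arrays of the water groups alone, 0 of the 10 genes passed. The same held for the methods' analysis of variance, run here on those arrays only and without limma.

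**Figure D3:**
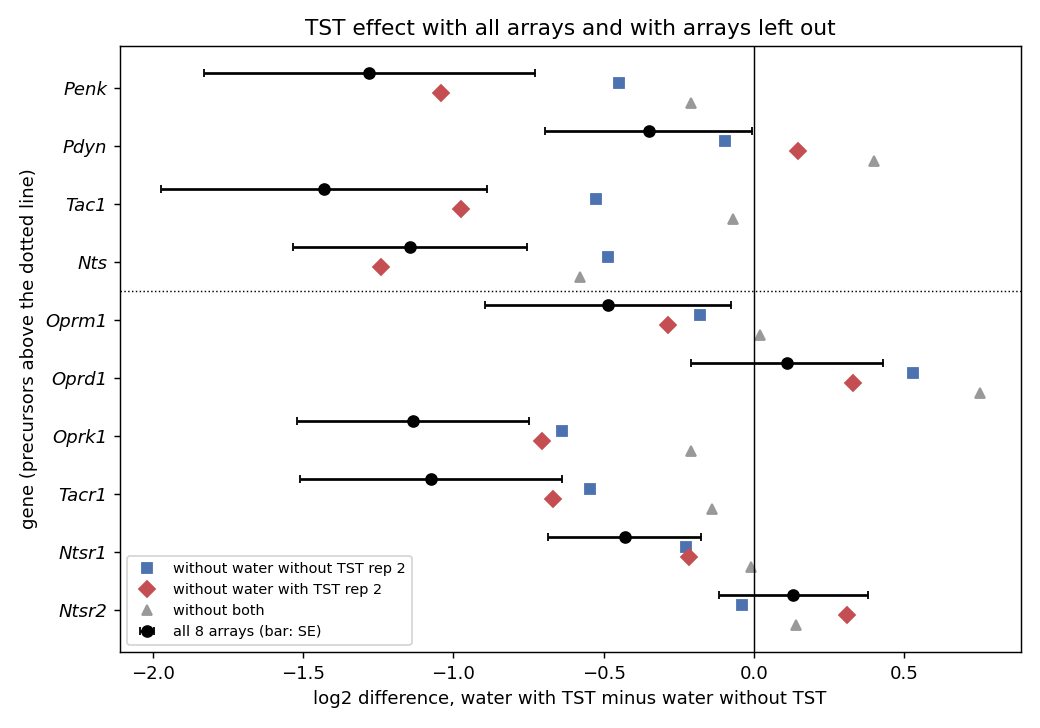
Log2 difference, water with TST minus water without TST, for the 10 genes in the fit to all 8 arrays (black, bar is the SE) and with replicate 2 of water without TST (blue), replicate 2 of water with TST (red) or both (grey) left out. The black points of Penk, Tac1, Nts, Oprk1 and Tacr1 lie between -1.43 and -1.075; of their grey points only Nts, at -0.58, lies beyond -0.21.

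Markers of striatal projection neurons also differed between the means of the water groups. All 12 measured markers were lower with TST (median -1.27), with 4 past the threshold, and their mean level was 9.86 and 8.59 in water with TST, against 9.68 and 11.30 in water without TST. Drd1, a dopamine receptor gene of direct-pathway neurons, was at 9.21 and 7.26 in water with TST, against 8.94 and 10.54 in water without TST. Drd2, its counterpart in indirect-pathway neurons, was at 8.59 and 7.43 with TST, against 8.31 and 10.86 without. Of the amygdala markers, 7 of 9 were lower, with a median of -0.945 and 3 past the threshold. Of the hypothalamic markers, 15 of 16 were lower, with a median of -0.282 and 1 past it. Lists of regions not named for these peptides differed too. Of 9 forebrain excitatory markers, 6 were lower with a median of -1.01, and of 8 choroid plexus markers 6 were lower with a median of -0.73. Of 11 cerebellar markers, 10 were higher with a median of 0.645. In these 3 lists 0 markers passed the threshold. On water with TST replicate 2 the forebrain excitatory list averaged -2.23 from its 8-array means. On replicate 1 alone, the striatal marker mean was higher with TST than without. The part of these marker levels in the result was not tested.

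**Figure D4:**
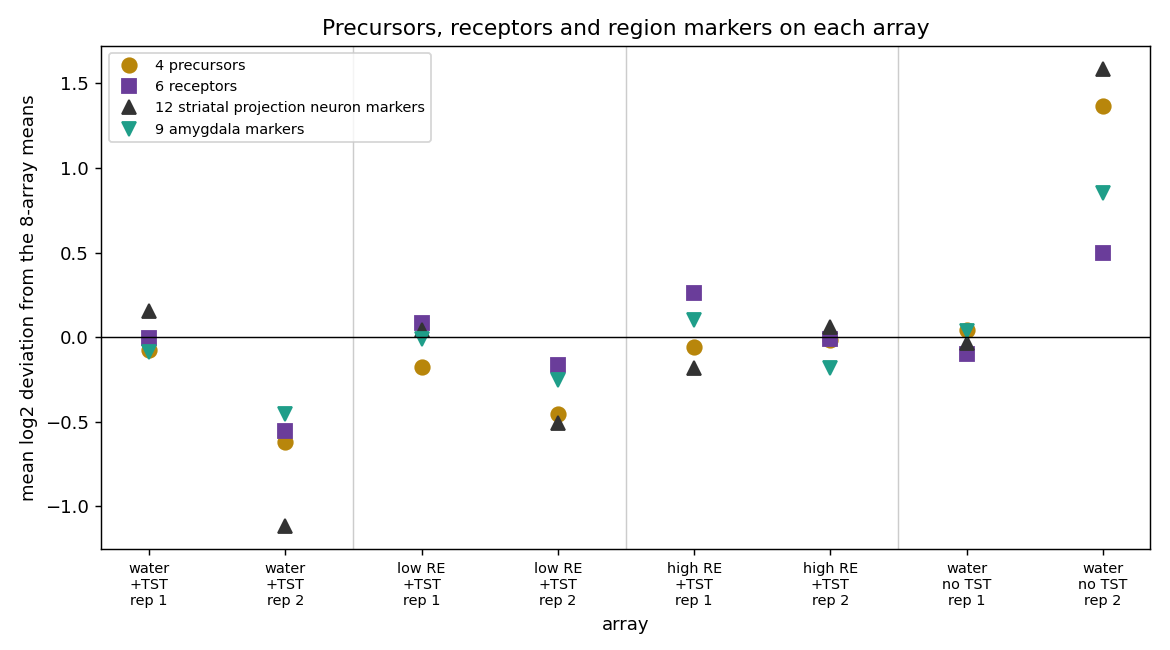
Mean log2 deviation from the 8-array means on each array, for the 4 precursors, the 6 receptors, 12 striatal projection neuron markers and 9 amygdala markers. On water without TST replicate 2 the precursors are at 1.37, the receptors at 0.496 and the striatal markers at 1.59; on water with TST replicate 2 they are at -0.622, -0.557 and -1.12.

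The array patterns closest to each gene were sought among 7345 named genes whose values spanned at least 1 log2 unit; Ntsr1 and Ntsr2, with ranges below that, were not searched. Nearest to Penk were Gpr52, Ppp1r1b and Pde10a, at root mean square distances of 0.219, 0.257 and 0.283. Nearest to Tac1 were Rxrg, Cd4 and Pde10a (0.187, 0.200 and 0.203). Ppp1r1b, Pde10a and Rxrg are in the striatal marker list, which had been chosen with earlier results of these data known. Oprk1 was nearest to Six3, also of that list, Mme and Cntnap2 (0.169, 0.173 and 0.194), and Nts to Zfp738, Mylpf and Gad2 (0.179, 0.222 and 0.226). Gad2 is in the GABAergic interneuron list, and Mme in the peptidase list. None of the genes nearest to Pdyn (Acvr1c, Armc9, Ddx55), Oprm1 (Rtl5, Cenpw, Dzank1), Oprd1 (Gm14461, Xylt1, Iqcg) or Tacr1 (Glra2, Pwwp2b, Minar2) is in a marker list.

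Of 14 further precursor and receptor genes, 9 were lower with TST, and 1 passed the threshold: Tacr3, the neurokinin B receptor gene, at -0.87 (SE 0.267). It was at 7.50 and 7.13 in water with TST, against 7.91 and 8.46 in water without TST, and did not pass without replicate 2 of water without TST (-0.595) or of water with TST (-0.685). Of 9 measured genes of peptidases that cleave these peptides, 7 were lower. Mme, which encodes neprilysin, an enkephalin- and substance P-degrading enzyme, was the 1 that passed, at -1.365 (SE 0.441), with 8.38 and 7.16 in water with TST, against 8.64 and 9.63 in water without TST. It too was lost without replicate 2 of either water group (-0.87 without the array of water without TST, -0.755 without that of water with TST), and without water with TST replicate 1 it reached -1.975 and adjusted p = 0.0492 by limma, in a fit where 512 of all rows passed the adjusted test.

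Of 8 measured processing genes, none passed for the TST; the largest differences were Pcsk1, a prohormone convertase gene, at -0.725 (SE 0.539) and Chgb, a secretory granule gene, at 0.555 (SE 0.242). Pcsk1 passed without water with TST replicate 1 (-1.7, adjusted p = 0.0345 by limma) and was at 0.25 without its replicate 2. Of 19 measured genes of receptor signalling, Kcnj9 was higher past the threshold at 0.945 (SE 0.334), and Adcy5 lower at -1.3 (SE 0.559). Kcnj9 encodes a subunit of channels that the G proteins of opioid receptors open, and Adcy5 the striatal adenylyl cyclase. Without water without TST replicate 2, Kcnj9 was at 0.535 and Adcy5 at -0.525, and without water with TST replicate 2 they were at 0.81 and -0.635, none past the threshold. Adcy5 was also lost with any low- or high-dose array left out, and it is in the striatal marker list.

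The next comparisons asked what each extract dose changed under the TST. Both doses were set against the same 2 arrays of water with TST. For neither dose did any of the 10 genes pass the study's threshold, which 3.54% of all rows passed at the low dose (1.94% higher, 1.61% lower) and 3.17% at the high dose (1.67% higher, 1.51% lower). None of the 22206 rows passed the adjusted limma test at either dose; 787 and 705 rows had an unadjusted p under 0.05. Without water with TST replicate 1, which leaves the array that stood apart as the only one of its group, 958 rows passed the adjusted test at the low dose and 928 at the high dose, none of them for the 10 genes. At the low dose 7 of the 10 genes had positive differences (median 0.135), and at the high dose 9 had (median 0.34), beside 0.01 and 0.005 over all named genes.

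Nts had the largest difference at the high dose, 0.76 (SE 0.389, 95% confidence interval -0.132 to 1.65), and 0.445 at the low dose (SE 0.389, interval -0.447 to 1.34). The high-dose difference ranged from 0.665 to 0.855 over the 8 fits that left out 1 array, and passed the threshold in the 2 without a water without TST array, where only the spread changed. It also passed when only the arrays of those groups were fitted. Oprk1 was at 0.67 for the high dose (SE 0.386, interval -0.215 to 1.55) and 0.515 for the low dose (SE 0.386, interval -0.37 to 1.40). Without water with TST replicate 2 the differences were 0.24 and 0.085, and without replicate 1 they were 1.1 and 0.945, past the threshold.

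Tacr1 followed at 0.615 for the high dose (SE 0.435) and 0.365 for the low dose (SE 0.435), with overlapping groups in both. Its high-dose difference was 0.21 without water with TST replicate 2 and 1.02 without replicate 1, neither past the threshold. Ntsr1 was higher on both low-dose arrays than in water with TST, by 0.445 (SE 0.255), and passed the threshold only without water with TST replicate 1 (0.66). At the high dose it differed by 0.185 (SE 0.255). Oprd1 was separated at the high dose, at 0.385 (SE 0.319), and was at 0.165 for the low dose. The low-dose groups did not overlap for 3 of the 10 genes, Nts, Oprk1 and Ntsr1, where 13.1% of rows were separated upward, and the high-dose groups for Nts, Oprk1 and Oprd1, where 15.3% of rows were. Penk, at 0.035 for the high dose (interval -1.23 to 1.30) and -0.375 for the low dose (interval -1.64 to 0.887), had intervals too wide to show that the groups were alike. The remaining values for Pdyn, Tac1, Oprm1 and Ntsr2 lay between -0.155 and 0.475.

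**Figure D5:**
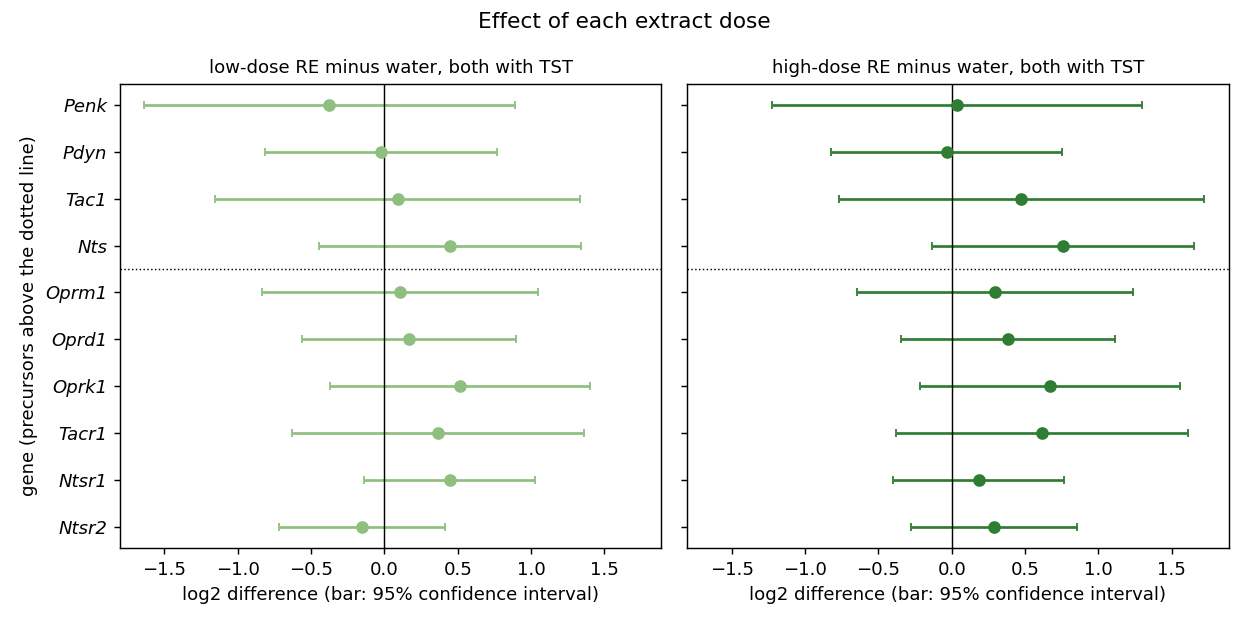
Log2 difference of low-dose RE (left) and high-dose RE (right) from water, all with TST, for the 10 genes; bars are 95% confidence intervals from the limma fit. Every interval crosses 0, and the high-dose point of Nts, at 0.76, is the furthest from it.

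Markers of other brain regions also differed in these comparisons. Cerebellar markers were lower in all 11 measured at either dose (medians -3.21 at the low and -3.095 at the high dose). Forebrain excitatory neuron markers were higher in all 9 measured (medians 1.73 and 1.71), with 0 past the threshold at either dose. Of 12 thalamic markers, 10 were higher at either dose; 7 passed the threshold at the low dose (median 1.24) and 5 at the high dose (median 1.07). Choroid plexus markers were higher in 8 of 8 at the low dose and 7 of 8 at the high dose (medians 0.935 and 0.545), with 0 past it. The striatal list was higher in 8 of 12 at the low dose (median 0.36, 0 past the threshold) and in 10 of 12 at the high dose (median 0.512, 1 past it, Six3 at 0.905). The hypothalamic list was higher in 8 of 16 at the low dose (median 0.0025, 0 past the threshold). At the high dose it was higher in 10 of 16 (median 0.145, 1 past it, Cartpt at 1.24). The amygdala list was higher in 5 of 9 at the low dose (median 0.085, 0 past the threshold). At the high dose it was higher in 6 of 9 (median 0.405, 1 past it, Zfhx3 at 0.715). The part of these marker levels in the extract differences was not tested.

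Of the related genes at the low dose, 1 of 14, Npff, the neuropeptide FF precursor gene, was lower past the threshold, at -0.57 (SE 0.244), and of 8 processing genes 1, Chgb, was lower past it at -0.58 (SE 0.242). Npff was at 12.47 and 12.49 in low-dose RE, against 12.82 and 13.28 in water with TST. Chgb was at 13.41 and 13.26 in low-dose RE, against 13.72 and 14.11 in water with TST. Both calls were lost in 7 of the 8 fits that left out an array, with Npff at -0.34 and Chgb at -0.385 without water with TST replicate 2. None of the peptidase or signalling genes passed at the low dose: Mme was at 0.9 (SE 0.441), Anpep at -0.455 (SE 0.230), Rgs4 at 1.945 (SE 1.00) and Plcb4 at -0.635 (SE 0.640). At the high dose, in the fit to all 8 arrays, none of the 4 lists had a gene past the threshold. The extremes there were Tac2 at 0.935 (SE 0.808) and Pomc at -0.745 (SE 0.551), Pcsk1 at 1.135 (SE 0.539) and Chgb at -0.54 (SE 0.242), Mme at 0.915 (SE 0.441) and Anpep at -0.49 (SE 0.230), and Rgs4 at 1.98 (SE 1.00) and Plcb4 at -0.7 (SE 0.640).

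These values turned on which array of water with TST was kept. Without its replicate 1, 7 of the 8 high-dose extremes passed the threshold, all but Anpep, and 4 of them passed after adjustment by limma. Those 4 were Rgs4 at 3.94 (adjusted p = 0.00215), Pcsk1 at 2.11 (adjusted p = 0.0106), Plcb4 at -1.89 (adjusted p = 0.0178) and Pomc at -1.74 (adjusted p = 0.0215). Without its replicate 2, Rgs4 was at 0.02, Pcsk1 at 0.16, Plcb4 at 0.49, Pomc at 0.25 and Mme at 0.305, none past the threshold. At the low dose, Rgs4 (3.905), Plcb4 (-1.825) and Mme (1.51) also passed without replicate 1, against -0.015, 0.555 and 0.29 without replicate 2.

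The mean differences between high and low dose use no water array, while their SEs come from the fit to all 8 arrays. None of the 10 genes passed the threshold, which 1.91% of rows passed (0.946% higher, 0.968% lower), and none of the rows passed the adjusted test, where 425 had an unadjusted p under 0.05. The differences ran from -0.26 to 0.445 (median 0.235), with 8 of the 10 positive. Ntsr2 was at 0.445 (SE 0.247), with 12.86 and 13.08 at the high dose against 12.54 and 12.51 at the low dose. Penk was at 0.41 (SE 0.551), Tac1 at 0.385 (SE 0.543) and Nts at 0.315 (SE 0.389). Ntsr1, at -0.26 (SE 0.255), was the lower one beside Pdyn at -0.01 (SE 0.344). The groups were separated upward for 5 of the 10 genes, Tac1, Nts, Oprd1, Oprk1 and Ntsr2, where 12.9% of rows were, and downward for Ntsr1, where 13.7% were. The low-dose arrays of these 6 genes were 0.01 to 0.03 apart. Of 16 hypothalamic markers, 12 were higher at the high dose (median 0.1275), with 1 past the threshold, Cartpt at 0.995. Their groups were separated upward for 6 and downward for 2. Striatal markers were higher in 10 of 12 (median 0.215) and thalamic markers lower in 11 of 12 (median -0.2125), with 0 past it. The part of these marker levels was not tested.

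None of the related genes passed in that comparison. The extremes of the lists were Npff at 0.27 (SE 0.244) and Tac2 at -0.225 (SE 0.808), Scg2 at 0.325 (SE 0.344) and Chga at -0.38 (SE 0.250), Ece1 at 0.53 (SE 0.423) and Ace at -0.195 (SE 0.524), and Rgs9 at 0.46 (SE 0.930) and Kcnj9 at -0.345 (SE 0.334). Over all 4 groups, none of the 10 genes passed the moderated F-test (limma, adjusted p = 1.00 for each; none of the rows passed, and 404, or 1.82%, had an unadjusted p under 0.05). The lowest unadjusted p of the 10 was that of Penk, 0.0703.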

How the data were processed

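Total RNA of 8 brain samples was hybridised to Clariom S arrays, 1 array per sample. Per the series' design text, RMA normalization was run by the authors with version 4.0.1 of Transcriptome Analysis Console. The deposited log2 values, with 2 decimals, were used unchanged. The table had 22206 rows, 19572 with 1 gene symbol in the platform annotation, 0 with several and 2634 unnamed. Array medians were 7.45 to 7.51. There were no detection calls, and precision is limited by the number of arrays.

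Group means were fitted to all 8 arrays with limma 3.58.1 in R 4.3.3 (lmFit, eBayes; 4 residual and 4.30 prior degrees of freedom), two-sided, with adjustment over all rows. The fit was tested on simulated data with independent noise in each row, so it does not cover shifts shared by many rows of an array. Genes named were the 10 members and, from 4 further lists, those past the threshold or else the extremes. The members, lists and tests were chosen with earlier results of these data known. Alternatives were a replicate block, only the groups compared, a trend and robust prior, dropping the dimmest 25% of rows and quantile normalization. Others were the methods' analysis of variance and arrays left out. The analysis of variance was run without limma on each couple of groups compared, not over all groups at once. Leaving out replicate 2 of both water groups together was added after seeing the data. Pcsk2, Ece2, Arrb2, Grk2 and 8 of the marker genes were not analysed here.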

Additional observations from a re-analysis of the deposited data

How the results depend on the processing

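For the TST, 5 of the 10 genes passed the study's threshold with all arrays, and 5 with quantile normalization, 4 with a trend and robust prior and 4 without the dimmest 25% of rows. The count was 0 with only the groups compared, 0 by the methods' analysis of variance and 0 with replicate 2 of both water groups left out. In the last of these the differences of the 5 genes were themselves smaller. With only the groups compared and by the analysis of variance, the differences were those of the fit to all arrays. Only the estimate of spread and its degrees of freedom changed there. Over fits with 1 array left out, the counts were 0 to 5 for the TST, 0 to 2 for the low dose, 0 to 1 for the high dose, 0 for high against low dose and 0 over all groups. At the high dose the count was 1 (Nts) with only the groups compared, by the analysis of variance, and with water with TST replicate 2 left out together with either array of water without TST; the analysis of variance also gave 1 (Nts) for the low dose and 1 (Nts) for high against low dose. Rows past the threshold for the TST numbered 567 with all arrays, 352 with only the groups compared, 962 without replicate 2 of both water groups, 3707 without water with TST replicate 1 and 364 without a high-dose array. At the low dose 787 rows became 267 with only the groups compared, 487 by the analysis of variance, 3767 without water with TST replicate 1, 1724 without low-dose replicate 1 and 496 without a high-dose array. At the high dose 705 became 3785 without water with TST replicate 1, and 354 and 401 without high-dose replicates 1 and 2. For high against low dose 425 became 249 without the dimmest rows, 1183 and 714 without low-dose replicates 1 and 2, and 247 without high-dose replicate 1. Rows passed the adjusted test without water with TST replicate 1 (512 for the TST, 958 and 928 at the low and high dose, 356 over all groups), without low-dose replicate 1 (8 at the low dose, 8 for high against low dose, 8 over all groups) and without replicate 2 of both water groups (3 for the TST, 3 over all groups); none of these was among the 10 genes.

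With replicate number as a block, 4 genes passed for the TST (Penk was lost) and 0 in each other comparison. Same-numbered arrays deviated together with correlations of -0.293 to 0.169 over 6 couples of groups, so the numbers were not taken as pairs.

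With water with TST replicate 2 left out together with either array of water without TST, low-dose differences changed sign for Tac1 (-0.365), Oprm1 (-0.095), Oprd1 (-0.055), Tacr1 (-0.04), Rgs4 (-0.015) and Plcb4 (0.555), and high-dose differences for Penk (-0.205), Ntsr1 (-0.03), Tac2 (-0.41), Pomc (0.25) and Plcb4 (0.49). For the TST, Oprd1 (-0.09) and Pcsk1 (0.19) did so with replicate 1 of water without TST left out as well, and Pdyn (0.4), Oprm1 (0.02), Pcsk1 (0.31) and Adcy5 (0.14) with its replicate 2.

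With 1 array left out, differences that changed sign ranged, for the TST, over -0.05 to 0.31 for Ntsr2, -0.31 to 0.53 for Oprd1, -1.7 to 0.25 for Pcsk1 and -0.845 to 0.145 for Pdyn. At the low dose they ranged over -0.335 to 0.025 for Ntsr2, -0.055 to 0.385 for Oprd1, -0.38 to 0.59 for Oprm1, -0.52 to 0.47 for Pdyn, -0.9 to 0.15 for Penk, -1.825 to 0.555 for Plcb4, -0.015 to 3.905 for Rgs4, -0.365 to 0.545 for Tac1 and -0.04 to 0.77 for Tacr1. At the high dose they ranged over -0.03 to 0.4 for Ntsr1, -0.09 to 0.68 for Oprm1, -0.53 to 0.46 for Pdyn, -0.205 to 0.275 for Penk, -1.89 to 0.49 for Plcb4, -1.74 to 0.25 for Pomc and -0.41 to 2.28 for Tac2. For high against low dose they ranged over -0.45 to 0.06 for Ace, -0.295 to 0.675 for Oprm1, -0.04 to 0.02 for Pdyn, -0.115 to 0.935 for Penk, -0.58 to 0.13 for Tac2 and -0.07 to 0.57 for Tacr1. The cause of these changes was not tested.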
